A study of Mus musculus with 16 samples.

Results

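The 36 genes described here are products that macrophages and monocytes are known for: surface receptors, Fc receptors and their signaling adaptors, the chains of complement C1q, lysozymes and cathepsins, the heme and iron genes of splenic red pulp macrophages, and a group of secreted or cytosolic factors. They were taken by name, and are 36 of the 18193 genes that the arrays name. Each gene was read from a probe set, the group of short probes on the array that measures a transcript. Only probe sets annotated to a single gene were used, and a gene with several was given by the one with the highest mean over all 16 arrays. All 36 genes had such a probe set.

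Expression was compared in 3 groups of mouse samples. The first was 5 samples of splenic B cells from nontransgenic mice, called wild-type B cells, and the second was 5 samples of splenic B cells from Eμ-xbp-1s mice, both taken at 20 weeks of age. The third was 6 Eμ-xbp-1s MM samples, which are multiple myeloma tumors of aging Eμ-xbp-1s mice whose age the labels do not give. The transgene carries the mouse cDNA for the spliced, active form of the transcription factor XBP-1 under an immunoglobulin heavy chain promoter and the Eμ enhancer, followed by an eGFP sequence, in mice of C57BL/6 background. These elements are active throughout B cell development and in some T cells, so the transgene is not restricted to plasma cells. The B cells were captured with magnetic beads against B220. The authors give 5 mice for each B cell group, though the labels do not tie an array to a mouse. No sort is named for the tumors, and neither their site nor whether each came from a separate mouse is given. The founder line behind each array is not given either. The p-values cover only how far these samples scatter, and among the tumors that scatter may be technical.

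Macrophages are tissue phagocytes that survive through the receptor encoded by Csf1r and take up dying cells, pathogens and antibody-coated particles, which their lysosomes then digest. In the spleen, red pulp macrophages clear old red cells, break down heme with the product of Hmox1 and return iron to the blood through ferroportin, the product of Slc40a1. In myeloma, macrophages are known as part of the tumor's surroundings, alongside plasma cells, stromal cells and vessels. In RNA of a whole sample, more cells of a type and more RNA per cell cannot be told apart.

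The promoters of 4 members are shown first because their genes form the pairs described below. The lysozymes Lyz1 and Lyz2 were higher in both transgenic groups by the probe sets read, which may share signal. The cathepsins Ctsd and Ctsl had their highest group mean in MM. Windows of 300 bases around the start of transcription from RefSeq (GRCm38.p6) were available for 27 of the 36 members, and both strands were searched for 3 motifs. TTNNGNAA, a core recognized by C/EBP factors of the myeloid lineage, was found in 16 of the 27 (59.3%) and in 44.1% of 27025 genes. CACGTG, the E-box bound by bHLH factors including TFEB, was found in 2 of the 27 (7.41%, Ctsd and Ctsl) and in 8.09% of all genes. GAGGAAGT, a core recognized by PU.1, was found in C1qc alone (3.7%) and in 3.69% of all genes. These shares describe letters in the windows and nothing about binding. The 250 bases before each start are given 5′ to 3′ on the gene's strand, with a motif in capitals, which is the C/EBP core in Lyz1 and Lyz2 and the E-box in Ctsd and Ctsl. Lyz1 lies at chr10:117292869-117293118, Lyz2 at chr10:117282273-117282522, Ctsd at chr7:142387828-142388077 and Ctsl at chr13:64370521-64370770, all on the minus strand.
Lyz1: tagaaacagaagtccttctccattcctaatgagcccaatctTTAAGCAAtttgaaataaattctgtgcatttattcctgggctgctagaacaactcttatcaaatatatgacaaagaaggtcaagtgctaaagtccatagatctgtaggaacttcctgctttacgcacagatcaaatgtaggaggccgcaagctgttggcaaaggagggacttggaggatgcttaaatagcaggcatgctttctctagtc
Lyz2: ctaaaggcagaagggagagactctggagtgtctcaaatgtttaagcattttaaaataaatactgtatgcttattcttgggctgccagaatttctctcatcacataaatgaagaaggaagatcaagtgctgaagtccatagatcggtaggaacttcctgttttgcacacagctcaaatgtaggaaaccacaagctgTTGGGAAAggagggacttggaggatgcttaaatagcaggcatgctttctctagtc
Ctsd: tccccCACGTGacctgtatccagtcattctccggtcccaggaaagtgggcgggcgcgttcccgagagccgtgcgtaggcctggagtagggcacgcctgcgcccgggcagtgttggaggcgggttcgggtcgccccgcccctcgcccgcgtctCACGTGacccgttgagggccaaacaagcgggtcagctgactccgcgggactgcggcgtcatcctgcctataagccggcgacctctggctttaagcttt
Ctsl: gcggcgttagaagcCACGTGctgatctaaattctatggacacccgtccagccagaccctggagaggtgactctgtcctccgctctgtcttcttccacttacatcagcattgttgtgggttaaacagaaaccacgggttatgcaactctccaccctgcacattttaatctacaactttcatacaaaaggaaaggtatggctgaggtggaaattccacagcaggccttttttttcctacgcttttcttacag

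Lyz1 and Lyz2 are neighboring copies of a lysozyme gene, and their windows were identical at 200 of 248 aligned bases (80.6%). The capitals fall at different places in them: the core starts 209 bases before the start of transcription in Lyz1 and 55 before it in Lyz2. In Ctsd, E-boxes start at -245 and -98, and in Ctsl a single one starts at -236.

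The values are intensities on a linear scale, computed by the authors with dChip. The median intensity of an array lay between 69.02 and 82.85, and no 2 arrays of a group were identical. Before the test, intensities under 50 were set to 50. A log2 fold change is therefore a lower bound in size, written "at least", where a group had no more arrays above that floor than at or below it. Eμ-xbp-1s B cell replicates 1 and 2 were more alike than any other pair of that group (SD of their log2 difference 0.168). The probe set of Xbp1 itself averaged 2067 ± 250.3 (SD, n = 5) in wild-type B cells and 2603 ± 460.5 (SD, n = 5) in those with the transgene. Its log2 fold change of 0.32 was not called by limma (adjusted p = 0.258). Whether this probe set detects the RNA of the transgene, or tells its spliced form from the unspliced, was not tested. The authors reported more spliced RNA and XBP-1s protein in splenic B cells of younger transgenic mice. As a check of the labels, the summed intensity of 8 B cell markers was between 31564 and 34814 on wild-type arrays, between 13304 and 26678 on Eμ-xbp-1s B cell arrays and between 712 and 13653 on MM arrays. That of 7 plasma cell markers lay between 8014 and 9706, 8479 and 12616, and 3468 and 13604, and limma called none of them higher in MM (0 of 6 tested against either group, and 0 at an unadjusted p under 0.05). One of them, Irf4, a transcription factor of plasma cells and activated B cells, was lower in MM than in wild-type (log2 -2.19, SE 0.39, adjusted p = 0.0026). Of the B cell markers, limma called 0 of 8 lower in Eμ-xbp-1s than in wild-type B cells, and 8 were lower at an unadjusted p under 0.05.

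Against wild-type B cells, Eμ-xbp-1s B cells showed 14 of the 35 members tested higher and 0 lower at an adjusted p under 0.01 (limma with Benjamini-Hochberg adjustment), where 3.28% of all genes tested were higher and 0.192% lower. The unadjusted p was under 0.05 for 25 higher members and 0 lower ones. For unadjusted p-values no share of all genes was computed, here or elsewhere in the text. The 14 were Lyz1, Lyz2, Fcgr3, Chil3, Lgals3, Tyrobp, Csf1r, Cd163, Aif1, Litaf, Fcer1g, Cd5l, Mpeg1 and Cd14. On 17 of the 36 members every Eμ-xbp-1s array was above every wild-type array, which was so for 4.84% of all genes, and on no member was every array below, which was so for 1.59%. The median log2 fold change of the 36 was 1.00, beside 0.00 over all genes, and it was above 0 for 35 of them, with Marco (-0.04) as the exception.

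Between MM and Eμ-xbp-1s B cells few members passed. Of 36 tested, Ctsl and Ms4a7 were higher, beside 1.49% of all genes, and Cd163 and Slc40a1 were lower, beside 1.67%. The median log2 fold change was 0.41, with 24 members above 0. All 6 MM arrays lay above all Eμ-xbp-1s B cell arrays for Ctsl, Ms4a7 and Fcgr3 (3 members, beside 3.84% of all genes) and below them for Cd163 and Slc40a1 (2 members, beside 2.87%). Without MM replicate 6 the number higher was 4, beside 2.53%. Against wild-type B cells, 9 of 34 tested members were higher in MM, beside 4.66% of all genes, namely Fcgr3, Ctsl, Lyz2, Lyz1, Lgals3, Ms4a7, Litaf, C1qa and Tyrobp. None was lower in limma at the adjusted threshold, beside 4.76% of all genes, and Slc40a1 was the 1 member lower at an unadjusted p under 0.05. The median log2 fold change was 1.34, with 33 members above 0. These comparisons share groups, so their values are given side by side and not as separate evidence. The heat map of all 36 genes shows each array against the wild-type mean.

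**Figure D1:**
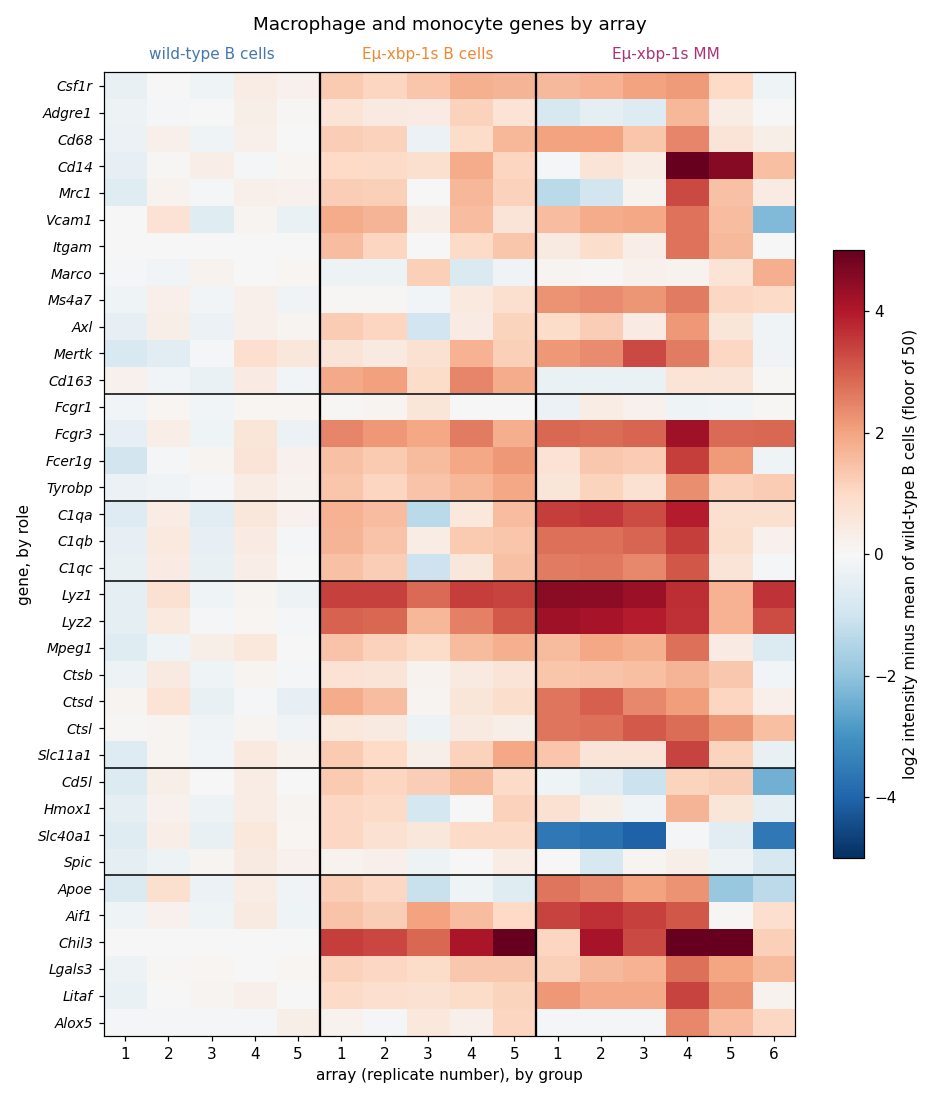
Heat map of the 36 macrophage and monocyte genes (rows, ordered by role) on the 16 arrays (columns, by group and replicate number), as log2 intensity (floor of 50) minus the mean of the 5 wild-type arrays; differences beyond the ends of the color scale take its end color. Eμ-xbp-1s B cells are mostly red, with replicate 3 paler or blue for the C1q chains, Apoe and Axl; MM replicate 4 holds the highest value of 23 of the 36 genes, and Slc40a1 is blue on MM replicates 1, 2, 3 and 6.

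The 12 surface receptors bind growth factors, sugars, lipids, dying cells or other cells. In Eμ-xbp-1s B cells 3 of the 12 rose over wild-type (Csf1r, Cd163 and Cd14) and none fell. Csf1r, the receptor for the macrophage growth factor M-CSF, stood at 881, 1162.5, 968, 1451 and 1308 in wild-type B cells. In the transgenic B cells it stood at 2801, 2375, 3000, 3848 and 3682, with every array above every wild-type array. The increase was 2.73-fold (log2 1.45, SE 0.18, adjusted p = 0.000335 in limma), and 2 of its 3 probe sets passed. In MM Csf1r ran from 977 through a median of 3642 to 4956. Replicate 6, the lowest, lay within the wild-type range, and the difference from wild-type missed the threshold (log2 1.38, SE 0.37, adjusted p = 0.0196), as did that from Eμ-xbp-1s B cells (-0.06, SE 0.37, adjusted p = 0.935).

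Cd163, the scavenger receptor for hemoglobin bound to haptoglobin, showed a rise in B cells and a fall in MM. It stood at 73.4, 56.6, 32, 83.5 and 57.2 in wild-type B cells and at 234, 264, 119, 340 and 229 in Eμ-xbp-1s B cells, a 3.57-fold increase with no overlap (log2 1.84, SE 0.25, adjusted p = 0.000747 in limma). In MM it ran from 5.62 through a median of 48.7 to 101, below every Eμ-xbp-1s B cell array and at or under the floor on 3 of 6 arrays. The fall was at least 3.41-fold (log2 -1.77, SE 0.30, adjusted p = 0.00385 in limma). Of the 11 fits without 1 array, 5 kept it, with adjusted p from 0.00186 to 0.0149. Too few arrays passed 100 for a test of MM against wild-type.

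Cd14, the co-receptor for bacterial lipopolysaccharide, was at 127, 177, 214, 158 and 179 in wild-type B cells and at 332, 330.5, 291, 603 and 352 in Eμ-xbp-1s B cells (2.18-fold, log2 1.13, SE 0.21, adjusted p = 0.00554 in limma). The groups did not overlap, but only 5 of 10 fits without 1 array kept the call, with adjusted p from 0.00502 to 0.02. In MM Cd14 split the arrays: it was 161, 262.5, 220 and 479 on replicates 1, 2, 3 and 6 and 8392 and 3907 on replicates 4 and 5. With that spread the difference from wild-type missed the threshold (log2 2.11, SE 0.93, adjusted p = 0.128).

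Ms4a7, a tetraspanning membrane protein of macrophages, rose in MM and not in B cells. It was at 76.6, 106, 81.9, 107 and 78.5 in wild-type B cells and at 93.5, 93.2, 80.7, 123 and 153 in Eμ-xbp-1s B cells, and these groups overlapped (log2 0.25, SE 0.19, adjusted p = 0.516 in limma). In MM it ran from 172 through a median of 412 to 537, above every B cell array of either group. The increase was 3.13-fold over Eμ-xbp-1s B cells (log2 1.64, SE 0.33, adjusted p = 0.009 in limma) and 3.72-fold over wild-type (log2 1.89, SE 0.31, adjusted p = 0.00136). The second held in all 22 other settings and the first in 9 of 23, with adjusted p from 0.00102 to 0.0389.

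For Adgre1, which encodes the macrophage antigen F4/80, all Eμ-xbp-1s arrays (521 to 879) lay above all wild-type arrays (326 to 482), at an adjusted p of 0.0306 in limma. On MM replicates 1 to 3 it was lower than on any B cell array, at 226, 287 and 254, while replicate 4 was the highest of the series at 1233. Mrc1, the mannose receptor, was below every B cell array on MM replicates 1 and 2 (90.7 and 124), within the wild-type range on replicate 3 (261) and at 2312 on replicate 4. Neither passed in any comparison. Itgam, an integrin chain of myeloid cells, was under the floor on all 5 wild-type arrays (32.6 to 41.5) and reached 144 in Eμ-xbp-1s B cells (at least 1.98-fold, adjusted p = 0.0288 in limma). Cd68, a lysosomal glycoprotein, was above every wild-type array (149 to 219) on all MM arrays (227 to 1011), at an adjusted p of 0.0126 in limma.

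Axl and Mertk encode kinases that bind dying cells, and neither passed in the fits as set. Mertk averaged 98.8 ± 46.7 (SD, n = 5) in wild-type and 183 ± 71.1 (SD, n = 5) in transgenic B cells. With the replicate number as a block, though the labels state no pairs, its log2 fold change of 0.94 passed (adjusted p = 0.00349 in limma, against 0.126 without the block). Vcam1, an adhesion molecule of red pulp macrophages and of stromal cells, gave the same pattern, with a log2 fold change of 1.21 and an adjusted p of 0.00204 with the block and 0.0462 without it. Its other probe sets differed by 0.71 and 0.10 and did not pass. In MM against wild-type the second of these passed (log2 0.95, adjusted p = 0.00525 in limma) and the first did not (0.92, adjusted p = 0.321). Marco, a scavenger receptor of marginal zone macrophages, was between 72.8 and 134 on most B cell arrays, and stood out on Eμ-xbp-1s B cell replicate 3 (270) and MM replicate 6 (423). A dimmer Marco probe set, not tested, had means of 41.4 in wild-type B cells, 59.3 in Eμ-xbp-1s B cells and 104.7 in MM.

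The 4 Fc receptor genes encode receptors for the constant part of antibodies and the adaptors through which they signal. Among them 3 rose in B cells with the transgene and 2 in MM against wild-type. Fcgr3, the low-affinity activating IgG receptor, was at 67.3, 114, 77.1, 137 and 73.5 in wild-type B cells and at 486, 405, 348, 541 and 315 in Eμ-xbp-1s B cells. In MM it ran from 619 through a median of 660 to 1685, above every array of both B cell groups. So the 3 groups stood apart in order, although the step from Eμ-xbp-1s B cells to MM missed the threshold (log2 0.89, SE 0.27, adjusted p = 0.0562 in limma). The increase over wild-type was 4.56-fold in Eμ-xbp-1s B cells (log2 2.19, SE 0.22, adjusted p = 7.17e-05) and 8.45-fold in MM (log2 3.08, SE 0.29, adjusted p = 3.4e-05), and both held in all other settings tried (23 and 22).

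The adaptor genes rose with it in B cells. Tyrobp, which encodes DAP12, was between 659 and 1058 in wild-type and between 1717 and 3114 in Eμ-xbp-1s B cells (2.83-fold, SE 0.18 on the log2 scale, adjusted p = 0.000273 in limma). In MM it was between 1239 and 4038 (log2 1.20, SE 0.27, adjusted p = 0.00896), a call that 3 of 11 fits without 1 array kept. Fcer1g, the common γ chain, was between 222 and 665 in wild-type and between 1051 and 1886 in Eμ-xbp-1s B cells (log2 1.69, SE 0.27, adjusted p = 0.00206). In MM it overlapped wild-type, with 366 on replicate 6 and 4625 on replicate 4. Fcgr1, the high-affinity IgG receptor, was between 92.2 and 170 on all 16 arrays, with group means of 112, 127 and 114. A dimmer Fcgr1 probe set, near the floor and not tested, had means of 18.8 in wild-type B cells, 48.6 in Eμ-xbp-1s B cells and 64.6 in MM.

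C1qa, C1qb and C1qc encode the chains of C1q, which opens the classical complement pathway and is made mainly by macrophages. None passed in Eμ-xbp-1s B cells, and C1qa passed in MM against wild-type. C1qa was at 230, 467, 245, 535 and 413 in wild-type B cells. The Eμ-xbp-1s B cells had 1208, 1044, 142, 515 and 1033, so that replicate 3 lay below every wild-type array, replicate 4 within their range and the other 3 above it. In MM it was at 3960, 4106, 3432 and 5420 on replicates 1 to 4 and at 624 and 625 on replicates 5 and 6, a median of 3696, with every array above wild-type (6.20-fold, log2 2.63, SE 0.59, adjusted p = 0.00874 in limma). Of the 11 fits without 1 array, only those without MM replicate 5 or 6 kept this call, and the adjusted p ranged from 0.00219 to 0.0278.

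The other chains followed the same arrays. C1qb was between 2821 and 4605 on MM replicates 1 to 4 and at 769 and 497 on replicates 5 and 6, and C1qc was between 3420 and 5487 on the first 4 and at 999 and 610 on the last 2. Against wild-type their log2 fold changes were 2.16 (SE 0.53, adjusted p = 0.013) and 1.88 (SE 0.52, adjusted p = 0.0228) in limma. A dimmer C1qb probe set passed there (2.55, adjusted p = 0.00709) and another did not (2.27, adjusted p = 0.0118). C1qb in Eμ-xbp-1s B cells (551 to 1372, against 321 to 592 in wild-type) had a log2 fold change of 1.24 with an adjusted p of 0.0127, which became 0.00545 with the replicate block. Its 3 probe sets differed, with one at 1.65 that passed (adjusted p = 0.00083) and another at 0.71 (adjusted p = 0.522). The brightest and the one that passed are of a type that may also bind transcripts of similar sequence.

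The 7 lysosomal and phagosomal genes encode enzymes and membrane proteins that digest what has been taken up. In Eμ-xbp-1s B cells Lyz1, Lyz2 and Mpeg1 rose, and in MM Lyz1, Lyz2 and Ctsl rose over wild-type. Lyz2, the lysozyme of macrophages and neutrophils, was at 370, 722, 479, 538 and 492 in wild-type B cells and at 3935, 3753, 1621, 2919 and 4273 in Eμ-xbp-1s B cells. In MM it ran from 1687 on replicate 5 through a median of 7096 to 9522 on replicate 1. Both transgenic groups lay above all wild-type arrays, by 6.15-fold in B cells (log2 2.62, SE 0.26, adjusted p = 6.04e-05 in limma) and by 11.3-fold in MM (log2 3.49, SE 0.39, adjusted p = 0.00012). These calls held in all other settings tried.

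Lyz1, whose promoter is shown above beside that of Lyz2, was between 237 and 550 in wild-type, between 2340 and 3588 in Eμ-xbp-1s B cells and between 1097 and 7488 in MM. Its log2 fold changes over wild-type were 3.31 (SE 0.22, adjusted p = 1.71e-06) and 3.73 (SE 0.45, adjusted p = 0.000188) in limma. Its probe set is of a type that may also bind transcripts of similar sequence, so signal of Lyz1 and Lyz2 may be shared. A dimmer probe set without this property was not measurable in the B cells (means of 13.02 and 36.49, both under the floor). In MM its mean was 315, and it passed neither over wild-type (log2 1.86, adjusted p = 0.0829 in limma) nor over Eμ-xbp-1s B cells (1.84, adjusted p = 0.12). Mpeg1, which encodes the pore-forming protein perforin-2, was between 436 and 956 in wild-type and between 1232 and 2270 in Eμ-xbp-1s B cells (2.58-fold, log2 1.37, SE 0.23, adjusted p = 0.00307), a call that 7 of 10 fits without 1 array kept.

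Ctsl, the cysteine protease cathepsin L, was higher in MM than in both B cell groups. It was at 144, 152, 123, 153 and 121 in wild-type and at 201, 187, 117, 190 and 170 in Eμ-xbp-1s B cells, and these groups overlapped (log2 0.30, SE 0.16, adjusted p = 0.333 in limma). In MM it ran from 389 through a median of 912 to 1162, with every array above every B cell array. The increase was 4.60-fold over Eμ-xbp-1s B cells (log2 2.20, SE 0.27, adjusted p = 0.0008) and 5.67-fold over wild-type (log2 2.50, SE 0.25, adjusted p = 5.1e-05). The first held in all 23 other settings, with adjusted p from 2.06e-05 to 0.00593.

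The cathepsins D and B had their highest group means in MM but did not pass. Ctsd, an aspartic protease, averaged 547 in wild-type, 1159 in Eμ-xbp-1s B cells and 2368 in MM, where it ran from 620 to 4160, and its log2 fold change in MM over wild-type was 1.91 (SE 0.44, adjusted p = 0.0102 in limma). Ctsb, a cysteine protease, was between 6034 and 7865 on MM replicates 1 to 5 and at 2189 on replicate 6, against 2020 to 3248 in wild-type (log2 1.21, SE 0.30, adjusted p = 0.0129). Between the B cell groups 1 of its 4 tested probe sets passed, and not the brightest. Slc11a1, the phagosomal metal transporter NRAMP, was at 1754 on MM replicate 4 and between 129 and 434 on the other MM arrays, against 108 to 232 in wild-type.

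**Figure D2:**
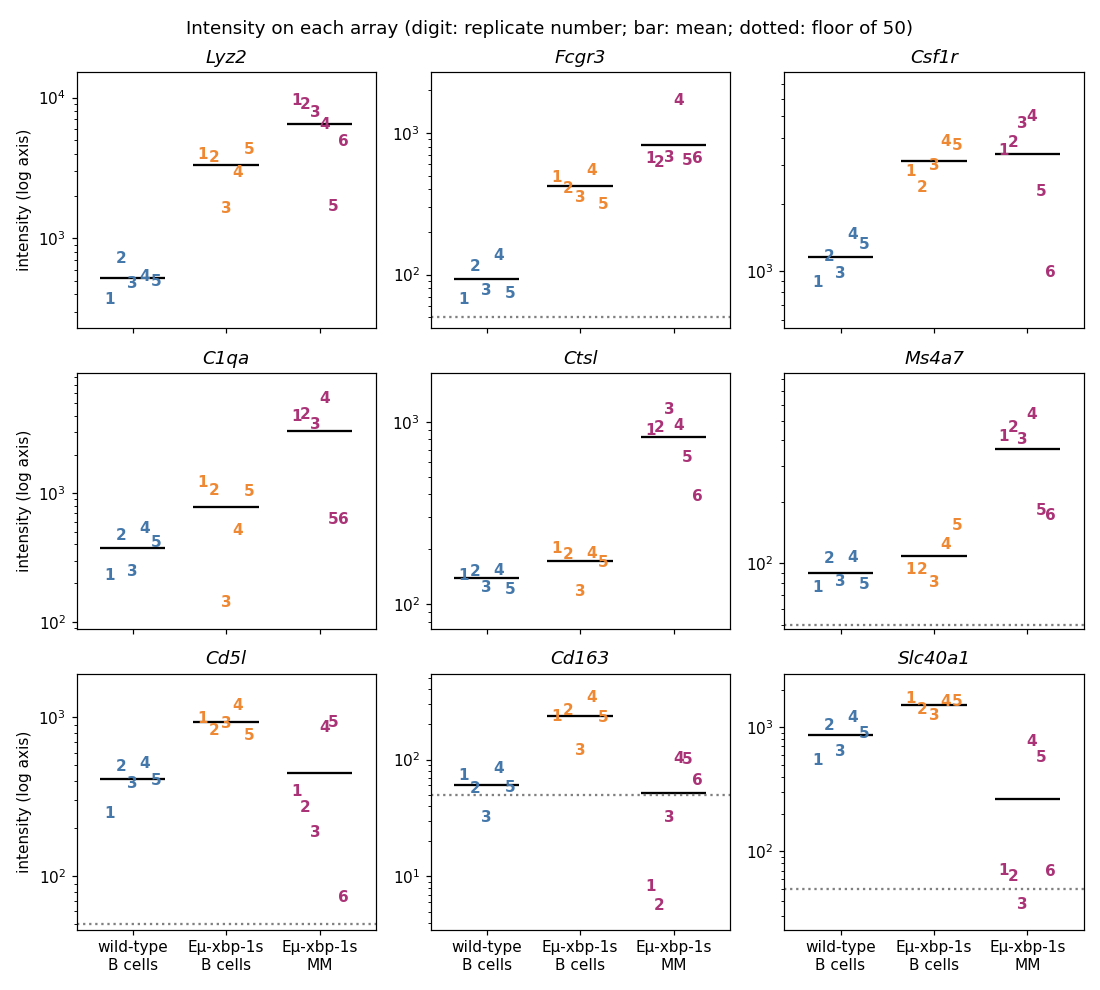
Intensity (log axis) of 9 genes on each array in wild-type B cells, Eμ-xbp-1s B cells and Eμ-xbp-1s MM; digits are replicate numbers, bars are group means, and a dotted line marks the floor of 50. Lyz2 and Fcgr3 are above all wild-type arrays in both transgenic groups, Ctsl and Ms4a7 in MM are above all B cell arrays, and Cd163 and Slc40a1 in MM are below all Eμ-xbp-1s B cell arrays.

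The 4 genes of red pulp macrophages that handle heme and iron, or mark these cells, are Slc40a1, Cd5l, Hmox1 and Spic. Cd5l was called higher in Eμ-xbp-1s B cells and Slc40a1 lower in MM than in Eμ-xbp-1s B cells, and none of the 4 passed between MM and wild-type. Slc40a1, the iron exporter ferroportin, was at 543, 1029, 641, 1197.5 and 891 in wild-type B cells and at 1689, 1389, 1232, 1611 and 1607 in Eμ-xbp-1s B cells, again without overlap (log2 0.86, SE 0.21, adjusted p = 0.0305 in limma). In MM it was at 69.6, 62.9, 37.5 and 68.4 on replicates 1, 2, 3 and 6 and at 767 and 570 on replicates 4 and 5. All 6 lay below every Eμ-xbp-1s B cell array, a 10.9-fold fall (log2 -3.45, SE 0.69, adjusted p = 0.00945 in limma). The call held in 7 of 23 other settings and in 2 of the 11 fits without 1 array (adjusted p from 0.00275 to 0.0304), and its size grew to -4.59 without MM replicates 4 and 5. A second probe set fell by 1.99 on the log2 scale and did not pass (adjusted p = 0.0383).

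Cd5l, which encodes a secreted inhibitor of cell death made by tissue macrophages, rose in Eμ-xbp-1s B cells, from 249.3, 489, 385, 509 and 403 in wild-type to 982, 830, 921, 1182.5 and 767 (2.34-fold, log2 1.23, SE 0.20, adjusted p = 0.00252 in limma). In MM it was at 866 and 929 on replicates 4 and 5 and between 73.8 and 343 on the other 4, with a log2 fold change of -1.54 from Eμ-xbp-1s B cells that missed the threshold (SE 0.55, adjusted p = 0.0938). Without replicates 4 and 5 it passed (-2.29, adjusted p = 0.00632). Hmox1, heme oxygenase, had means of 475, 722 and 722 in the 3 groups and passed nowhere. Spic, the transcription factor that red pulp macrophages need, was between 90.7 and 216 on all arrays by its brightest probe set. That probe set, like the one of Lyz1, is of the type that may also bind similar transcripts. A dimmer one rose between the B cell groups from a mean of 51.7 to 116 (log2 1.07, adjusted p = 0.00112).

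Of the 6 lipid-binding, secreted or cytosolic factors, Chil3, Lgals3, Aif1 and Litaf rose in transgenic B cells, and Lgals3 and Litaf in MM against wild-type. Chil3, the chitinase-like protein Ym1 of macrophages and neutrophils, was under the floor on all wild-type arrays (9.63 to 36.9). With the transgene it was at 545, 508, 362, 844 and 2708, at least 14.9-fold higher (log2 3.90, SE 0.43, adjusted p = 0.000115 in limma). In MM it was above every wild-type array but ranged from 106 on replicate 1 to 8005 and 5216 on replicates 4 and 5, and with a log2 fold change of at least 3.95 and an SE of 1.03 it missed the threshold (adjusted p = 0.0176).

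Lgals3, the β-galactoside-binding galectin 3, rose in both transgenic groups. It was at 384, 472, 496, 459 and 489 in wild-type B cells, at 1021, 929, 864, 1152 and 1166.5 in Eμ-xbp-1s B cells and between 1036.5 and 3052 in MM. It rose 2.22-fold in B cells (log2 1.15, SE 0.13, adjusted p = 0.000157 in limma) and 3.49-fold in MM over wild-type (log2 1.80, SE 0.23, adjusted p = 0.000317), and both calls held in all other settings tried. Litaf, an endosomal protein first known as an inducer of TNF, was between 211 and 311 in wild-type and between 443 and 570 in Eμ-xbp-1s B cells (log2 0.92, SE 0.13, adjusted p = 0.00111). In MM it was between 970 and 2710 on replicates 1 to 5 and within the wild-type range, at 294, on replicate 6 (log2 1.95, SE 0.42, adjusted p = 0.0068), a call that 3 of 11 fits without 1 array kept. A second Litaf probe set passed in neither comparison (0.75, adjusted p = 0.142, and 1.96, adjusted p = 0.0233), and with the mean of both probe sets neither call held (adjusted p = 0.0125 and 0.0117).

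Aif1, the actin-binding protein IBA1, was at 154, 137, 231, 169 and 115 in Eμ-xbp-1s B cells against 41.4 to 78.0 in wild-type (at least 2.71-fold, log2 1.44, SE 0.20, adjusted p = 0.000829 in limma). In MM it divided the arrays as the C1q chains did, with 494 to 721 on replicates 1 to 4 and 59.8 and 103 on replicates 5 and 6 (adjusted p = 0.0164 against wild-type). Apoe, the lipid carrier apolipoprotein E, was between 3340 and 5312 on MM replicates 1 to 4 and at 220 and 334 on replicates 5 and 6, both below every wild-type array (501 to 1452). Among Eμ-xbp-1s B cells it was at 1966 and 1716 on replicates 1 and 2 and between 387 and 710 on the other 3. It passed in no comparison. Alox5, the leukotriene-forming lipoxygenase, exceeded 150 on MM replicates 4 and 5 alone (275 and 151) and was too dim for a test between the B cell groups.

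**Figure D3:**
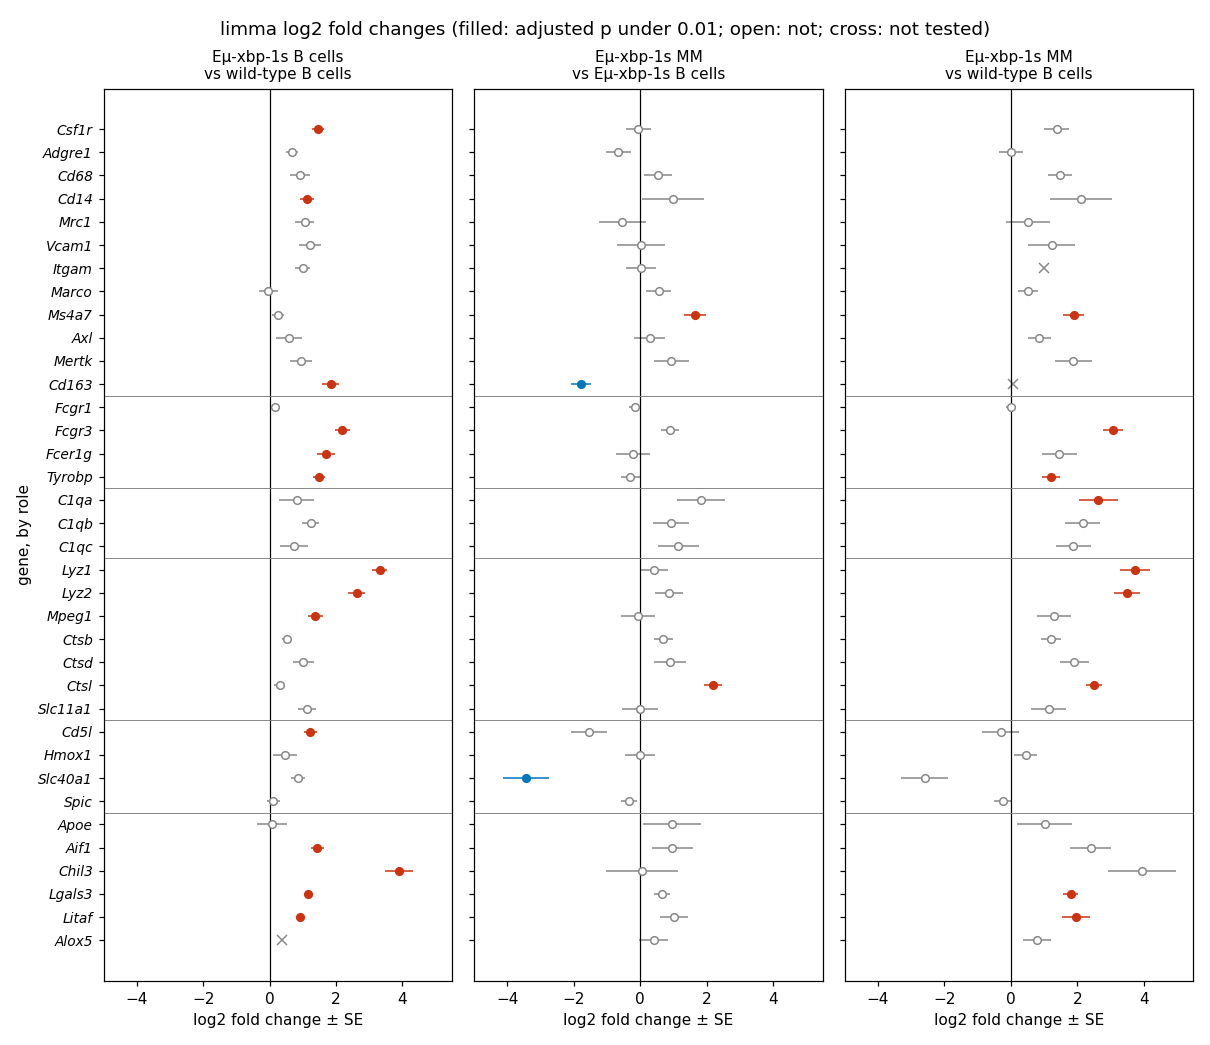
log2 fold changes (horizontal axis, with standard errors from limma) of the 36 genes, by role, in the 3 comparisons; filled points have an adjusted p under 0.01, open points do not, and crosses were not tested. In Eμ-xbp-1s against wild-type B cells 14 filled points lie above 0; between MM and Eμ-xbp-1s B cells 2 lie above and 2 below; in MM against wild-type 9 lie above.

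Genes differed in which MM samples carried them. MM replicate 4 was the highest of all 16 arrays for 23 of the 36 members, and the summed intensity of the 36 was 100991 there against 23883 on replicate 6, the lowest MM array. Replicates 1 to 3, whose sums were 61194, 63892 and 58918, were high for the C1q chains, lysozymes, cathepsins, Apoe, Aif1 and Ms4a7, and were below every Eμ-xbp-1s B cell array for Slc40a1, Cd163, Cd5l and Adgre1. Replicate 5 was high for Cd14 and Chil3 and low for C1q, Apoe and Aif1, and replicate 6 kept Lyz2 (4891), Lgals3 (1377) and Fcgr3 (663) while Csf1r, Vcam1, Ctsb and Litaf were within or below the wild-type range. Fcgr3, Ctsl, Lyz1, Lyz2, Lgals3, Ms4a7, C1qa, Cd68, Chil3 and Tyrobp were the 10 members for which all 6 MM arrays exceeded all wild-type arrays, as did 6.27% of all genes. No member lay below all wild-type arrays in MM, as 5.71% of all genes did. Leaving out replicate 6 raised the members called higher against wild-type from 9 to 19, beside 7.06% of all genes, and the replicate number as a block, which also drops replicate 6, raised them to 20, beside 5.04%.

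The wild-type arrays varied far less, with sums of the 36 from 11329 to 18078. Among Eμ-xbp-1s B cell arrays the sum was 24507 on replicate 3 and between 36230 and 41819 on the others. Replicate 3 was the lowest of its group for Lyz2, the C1q chains, Apoe, Axl, Mrc1, Hmox1 and Ctsd, while Csf1r, Fcer1g and Tyrobp lay within the range of the other arrays there and Aif1 was the highest. Wild-type arrays 1 and 2 differed from arrays 3 to 5 more (0.394 to 0.487, SD of the log2 difference) than either set did within itself (0.220 to 0.252). Eμ-xbp-1s arrays 1 and 2 were the pair most alike in their group (0.168), so a fit on them has little spread and its count may be raised. Among arrays 1 and 2 alone, 28 members were higher with the transgene, beside 6.00% of all genes, and among arrays 3 to 5 alone 8 were, beside 2.75%. The calls of Cd14, Mpeg1, Cd5l, Aif1, Cd163 and Litaf were lost in the latter, with log2 fold changes from 0.81 (Litaf) to 1.76 (Cd163) there and adjusted p from 0.0104 to 0.0324 in limma.

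The regulators that drive macrophage development moved in part. Of 13 with a probe set, 10 were tested between the B cell groups and 3 rose: Maf (log2 1.92, SE 0.22, adjusted p = 0.000181 in limma), Cebpa (1.13, SE 0.15, adjusted p = 0.000511) and Cebpb (1.95, SE 0.26, adjusted p = 0.000538), all transcription factors. Maf was between 105 and 175 in wild-type, between 294 and 692 in Eμ-xbp-1s B cells and between 212 and 892 in MM, and it also marks some T cells and myelomas. In MM against wild-type 4 of 11 rose, namely Maf, Cebpa, Csf2ra (log2 1.25, adjusted p = 0.00281), the GM-CSF receptor chain, and Tfec (at least 1.41, adjusted p = 0.00571). Spi1, which encodes PU.1 and is also expressed in B cells, averaged 482 in wild-type and 575 in Eμ-xbp-1s B cells and was not called (log2 0.22, SE 0.17, adjusted p = 0.523).

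Of 17 further macrophage and monocyte receptors, 2 of 13 tested rose in Eμ-xbp-1s B cells: Clec7a, the β-glucan receptor Dectin-1 (60.9 to 449 on average, log2 2.73, SE 0.27, adjusted p = 5.56e-05 in limma), and Cd300a (log2 1.29, SE 0.12, adjusted p = 3.9e-05). Msr1, a scavenger receptor, was near the floor in both B cell groups (33.0 to 66.7) and between 89.5 and 287 in MM, at least 2.88-fold above Eμ-xbp-1s B cells (log2 1.53, SE 0.26, adjusted p = 0.00424). Of the other lysosome genes, Lamp1 and Lamp2 rose in MM against wild-type (log2 1.28 and 1.31, adjusted p = 0.00292 and 0.000287), and 0 of 10 rose in Eμ-xbp-1s B cells in limma (3 at an unadjusted p under 0.05). None of the 4 genes of the NADPH oxidase, which B cells share, rose. Ncf4 fell in MM against wild-type (log2 -1.37, SE 0.25, adjusted p = 0.00274 in limma), where 3 of the 4 were lower at an unadjusted p under 0.05. None of 4 iron storage and uptake genes passed in limma in any comparison, with 0, 2 and 3 higher at an unadjusted p under 0.05 in the order in which the comparisons were introduced. In each of these lists most genes tested did not pass.

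Markers of other cell types moved with the groups, and their part in the results above was not tested. Neutrophil markers rose in Eμ-xbp-1s B cells for 7 of 11 tested genes. The summed intensity of 12 was between 1199 and 2058 in wild-type, between 10276 and 31314 in Eμ-xbp-1s B cells, between 1129 and 2178 on MM replicates 1, 2, 3 and 6 and at 71765 and 49808 on MM replicates 4 and 5. The alarmin S100a8 was between 33.5 and 451 in wild-type, between 3627 and 8190 in Eμ-xbp-1s B cells and at 12588 and 12292 on MM replicates 4 and 5, the arrays highest for Cd14 and Chil3. T cell markers rose for 7 of 7, with sums of 662.5 to 752 in wild-type, 4914 to 5934 in Eμ-xbp-1s B cells and 617 to 3961 in MM, and Cd3d was between 968 and 1496 in Eμ-xbp-1s B cells.

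Among 5 erythroid markers tested between the B cell groups, limma called Alas2 alone higher with the transgene, and 5 were higher at an unadjusted p under 0.05. The sum of 7 was highest in Eμ-xbp-1s B cells on replicate 3 (9005) and in MM on replicates 4 and 5 (18467 and 29014). It was 231 to 452 in wild-type and 241 to 340 on the other MM arrays. Stroma and endothelium markers were low in both B cell groups (sums of 599 to 1056) and between 5207 and 13152 in MM, where 6 of 10 rose over transgenic B cells and 7 over wild-type, and Bgn, which encodes the matrix protein biglycan, was between 789 and 4427. Dendritic cell markers passed nowhere, with sums of 636 to 785, 889 to 1348 and 580 to 1845 in the 3 groups. The unadjusted p of limma was under 0.05 for 2 of 5 tested between the B cell groups, and for 0 and 1 of 5 when MM was set against B cells with and without the transgene. No defining marker of these lists was at 0 on any array, since the lowest value of the table is 1. Without MM replicates 4 and 5, which stood apart for neutrophil and erythroid markers, Ctsl and Ms4a7 remained called over Eμ-xbp-1s B cells and Cd163 and Slc40a1 below them, while the members' median log2 fold change went from 0.41 to -0.03.

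**Figure D4:**
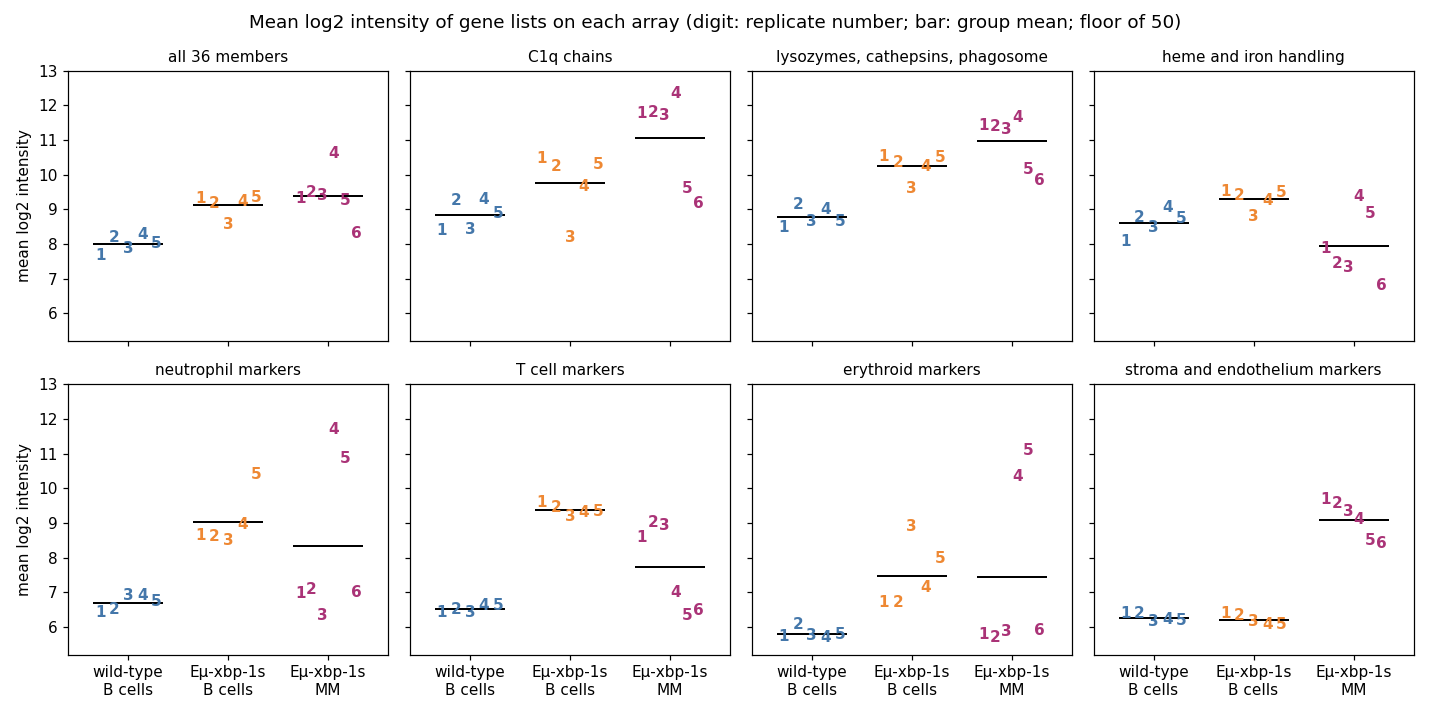
Mean log2 intensity (vertical axis, floor of 50) of the 36 genes, of 3 of their roles and of 4 marker lists of other cell types on each array; digits are replicate numbers and bars group means. The C1q chains separate MM replicates 1 to 4 from 5 and 6, neutrophil and erythroid markers separate MM replicates 4 and 5 from the other MM arrays, and stroma and endothelium markers are above 8 on all MM arrays and under 7 on all B cell arrays.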

How the data were processed

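Total RNA of 5 wild-type B cell, 5 Eμ-xbp-1s B cell and 6 Eμ-xbp-1s MM samples was hybridized to Affymetrix mouse arrays, 1 array per sample. The deposited intensity of each probe set is on a linear scale. The authors made these values in dChip. All arrays were brought to the scale of a single reference array, and mismatch probe signal was subtracted in the model that gives a value per probe set. The labels gave the groups and replicate numbers.

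Of 45101 probe sets, 64 controls were left out, 34754 were matched to a current symbol of a single gene, and 932 listed with several genes were not named. Intensities under 50 were set to 50. A probe set entered a comparison if it passed 100 on over 20% of its arrays. The log2 values of those were fitted with limma (3.58.1, R 4.3.3), separately for each comparison, and p-values were adjusted by Benjamini and Hochberg's method over all probe sets in the fit, at a threshold of 0.01. The procedure was tested on simulated data. Counts over all genes take each gene by its brightest probe set. Summaries used Python 3.11.15 (pandas 2.3.3, numpy 2.4.6) and figures matplotlib 3.10.9. The methods' SAM test was not rerun. The number of arrays limits the precision.

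The members and all gene lists were chosen with earlier results of these data known. All 36 members are named. From other lists, genes past the threshold are named (at most 4 per comparison), as are defining markers. Xbp1 and Spi1 are named outside this rule, after their values were seen.

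Replicate numbers recur in every group. Same-numbered wild-type and Eμ-xbp-1s B cell arrays deviated together from their group means (correlations over probe sets of 0.512, 0.527, 0.218, 0.176 and 0.512). The replicate number was therefore also fitted as a block, as an alternative setting only. The labels do not state pairs, and correlations between differently numbered arrays were not computed. Pairs and a shared split of arrays 1 and 2 from 3 to 5 were not told apart. The blocked value is given where it changed a call between the B cell groups, and for MM the changed calls are named at the end. Alternatives were floors of 16 and 100, no filter, a filter on an SD above 0.3, quantile normalization, median scaling, 3 groups in 1 fit, the mean over probe sets of a gene, the replicate block, an adjusted p under 0.05, trend and robust variance, and leaving out arrays. Separating arrays 1 and 2 from 3 to 5, and averaging Eμ-xbp-1s B cell replicates 1 and 2, were chosen after seeing the data. Promoters are from RefSeq (GRCm38.p6).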

Additional observations from a re-analysis of the deposited data

Results flagged for a closer look

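An array was singled out where the gap between it and the nearest array of its group was a large part of the group's range (Dixon's 95% critical value). This held for 9 of 103 sets of a gene and a group, and chance alone gives about 1 in 20.

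In Eμ-xbp-1s B cells, replicate 3 was the lowest for Lyz1 (2340.4, the others 3379 to 3588) and the highest for Fcgr1 (170.1, the others 113 to 122) and Marco (270.2, the others 72.8 to 106). Replicate 4 was the highest for Cd14 (603, the others 291 to 352). In MM, replicate 6 was the lowest for Vcam1 (155.2, the others 2081 to 4748) and Ctsb (2189.1, the others 6034 to 7865), and the highest for Marco (423.3, the others 124 to 194). Replicate 5 was the lowest for Lyz1 (1096.6, the others 3982 to 7488), and replicate 4 the highest for Fcgr3 (1684.5, the others 619 to 672).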

How the results depend on the processing

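No member changed direction among those called. Of the calls in Eμ-xbp-1s against wild-type B cells, Lyz1, Lyz2, Fcgr3, Tyrobp and Lgals3 held in all 23 other settings. The 14 members higher became 6 with all 3 groups in 1 fit, 8 with no filter, 28 in arrays 1 and 2 alone and 8 in arrays 3 to 5 alone, and 12 to 19 with each array left out in turn. With the replicate block they were 17, beside 3.75% of all genes. Apart from the block and the separate sets of arrays, shares of all genes were not computed for these settings. The 28 rests on the most alike pair of Eμ-xbp-1s B cell arrays. The median log2 fold change stayed between 0.91 and 1.23 with each array left out.

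Of the members called between MM and Eμ-xbp-1s B cells, Ctsl alone held in every setting. The 2 higher became 1 with floors of 100 or 16, no filter, or Eμ-xbp-1s B cell replicates 1 and 2 averaged, and 1 to 4 with each array left out (4 without MM replicate 6). The 2 lower became 1 with a floor of 100, the mean of probe sets or quantile normalization, 0 with a floor of 16, no filter or the averaged replicates, and 0 to 2 with each array left out. For the 9 higher in MM than in wild-type, the values were 16 with 3 groups in 1 fit, 15 with quantile normalization, 14 with an SD above 0.3, 18 at an adjusted p under 0.05, and 6 to 19 with each array left out (19 without MM replicate 6). The 0 lower became 1 (Slc40a1) with 3 groups in 1 fit, at an adjusted p under 0.05, without MM replicates 4 and 5 together, and 0 to 1 with each array left out (1 without MM replicate 4 or 5). The medians of the comparisons with MM ranged from 0.18 to 0.55 and from 1.08 to 1.70 with each array left out. Among these other settings, the share of all genes was computed only for those higher without MM replicate 6. Causes were not tested.

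Same-numbered MM and B cell arrays had correlations from -0.284 to 0.442, a range that overlaps that between the B cell groups (0.176 to 0.527). The labels state no pairs here either. With the replicate block, MM against Eμ-xbp-1s B cells had 1 higher and 1 lower, and the calls of Ms4a7 and Slc40a1 were lost. MM against wild-type had 20 higher. The 11 calls gained there were Csf1r, Cd68, C1qb, C1qc, Vcam1, Fcer1g, Mpeg1, Ctsb, Ctsd, Aif1 and Mertk. These fits also drop MM replicate 6, which has no number to match.

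Arrays of 5 or 6 per group and the floor of 50 limit what can be seen in dim genes such as Cd163, Itgam, Aif1 and Alox5.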
